A study of Homo sapiens with 4 samples.

Results

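Cytosolic heat shock proteins and chaperonins, a set of 37 genes taken by their NCBI Gene IDs from a list of symbols, were described in RNA-Seq libraries of BT-474, an established luminal B-like breast cancer cell line. All 37 had reads in at least 1 library, among 18882 genes in all, and 36 passed the filter on low counts that left 14298 genes to be tested. HSPD1 and HSPE1 of the list encode the mitochondrial chaperonin and were kept as the list gives them. The control group consisted of 2 libraries of wild-type BT-474 cells, numbered replicates 1 and 2, and the NRP-1 group of 2 libraries of BT-474 NRP-1 cells, numbered replicates 2 and 3. BT-474 NRP-1 cells carry a plasmid that expresses the receptor Neuropilin-1 and came from transfected clones picked and kept under Geneticin (how many clones is not given), an antibiotic that wild-type cells were not said to receive, so that NRP-1, the selection and the clonal origin cannot be told apart. The comparison asks how the transcriptome differs on NRP-1 overexpression. No source says that the libraries of a group came from separate cultures, and the p-values then measure only the spread between these libraries.

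Heat shock proteins are molecular chaperones. HSP70 proteins bind short exposed stretches of unfolded proteins in a cycle driven by ATP, J-proteins (the DNAJ genes) deliver clients to them, and nucleotide exchange factors such as the BAG and HSP110 proteins release the clients. HSP90 finishes the folding of kinases and steroid receptors, among them ERBB2 and the estrogen receptor, while the ring-shaped chaperonin TRiC/CCT folds actin and tubulin. Under heat or other protein damage the heat shock factor HSF1 binds heat shock elements, repeats of the bases GAA and their complement TTC in alternation, and raises the inducible members, whereas the constitutive members serve folding in unstressed cells.

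The libraries held between 8243595 and 8448926 reads assigned to genes. NRP1 had 7 and 8 reads in wild-type and 103 and 62 in NRP-1 libraries, and its log2 difference, the log2 of the fitted NRP-1 over control ratio, was 3.38 with an SE of 0.42 (adjusted p = 0.044 by the quasi-likelihood test of edgeR, Benjamini-Hochberg corrected). The biological coefficient of variation between libraries was 0.0640 in the control group and 0.225 in the NRP-1 group. All 10 genes of a BT-474 identity list, among them ERBB2, GATA3 and KRT8, had reads, and 4 of 8 fibroblast genes, DCN, PDGFRB, FAP and THY1, were at 0 in every library. The leukocyte genes CD3E and CD14 were at 0 as well. Other genes of these lists had reads. COL1A1, the 1 fibroblast gene tested, had 1739 and 1740 control reads against 1513 and 1357 (log2 difference -0.34, adjusted p = 0.177, edgeR). VWF differed most in the leukocyte and endothelial list, with 9 and 20 control reads against 47 and 49 (1.66, adjusted p = 0.0998, edgeR). In the identity list GATA3 did, with 184 and 186 control reads against 688 and 289 (1.34, adjusted p = 0.126, edgeR). The summed level of the fibroblast list was 27.0 to 35.3 FPKM and that of the leukocyte and endothelial list 43.7 to 48.4 FPKM. A single value compared between 2 and 2 libraries by exact permutation (two-sided) gives a p of 0.33 at the least. In bulk RNA, a smaller share of cells that express a gene and less RNA of it per cell cannot be told apart.

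No member had an adjusted p under 0.05 in edgeR, where 0.413% of all tested genes did with a higher and 0.678% with a lower level (1.09% together). In limma no member did either, but neither did NRP1 (adjusted p = 0.121 and 0.112 in the limma fits). The share of all genes that limma called is not given, and no reading of the members is drawn from its count. DESeq2 called 2 members, HSPA1A and HSPA1B, against 6.67% of all tested genes. At an unadjusted p under 0.05 there were 9 members, 25.0% of the 36 tested, against 22.9% of all tested genes. HSPH1, DNAJA1, DNAJB6 and CCT6A were the 4 higher ones, against a background of 10.8%, and HSPA6, HSPA1A, HSPA1B, HSPB1 and CRYAB the 5 lower ones, against 12.1%. A small group of members lay below both controls in both NRP-1 libraries, and a larger group lay above them mainly in NRP-1 replicate 3. The first group consisted of HSPA6, HSPA1A, HSPA1B, HSPB1 and CRYAB, 5 members or 13.9%, where 28.3% of all tested genes were lower without overlap in CPM (reads scaled to library size). In the other direction 13 tested members, 36.1%, had groups that did not overlap, against 27.9% of all tested genes. In FPKM there were 14 such members, with CCT7 added, and the 5 lower ones were as in CPM.

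In FPKM, which corrects for transcript length, HSPB1 was the member with the highest level in control cells, at 935 and 775. HSP90AB1 followed with 526 and 503, HSP90AA1 with 410 and 416 and HSPA8 with 376 and 351. In NRP-1 replicate 2 the order of the first members was HSP90AB1, HSPB1 and HSP90AA1, and in NRP-1 replicate 3 it was HSP90AB1, HSP90AA1 and HSPB1. Within each library HSP90AB1 was above HSP90AA1, but the ranges of both genes overlapped, and the HSPB1 level overlapped with theirs across libraries. HSPB8 was the lowest member, at 0.12 and 0.06 FPKM in control cells. The 37 members made up 0.95% and 0.933% of all FPKM in the control libraries, 0.912% in NRP-1 replicate 2 and 1.24% in NRP-1 replicate 3.

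**Figure D1:**
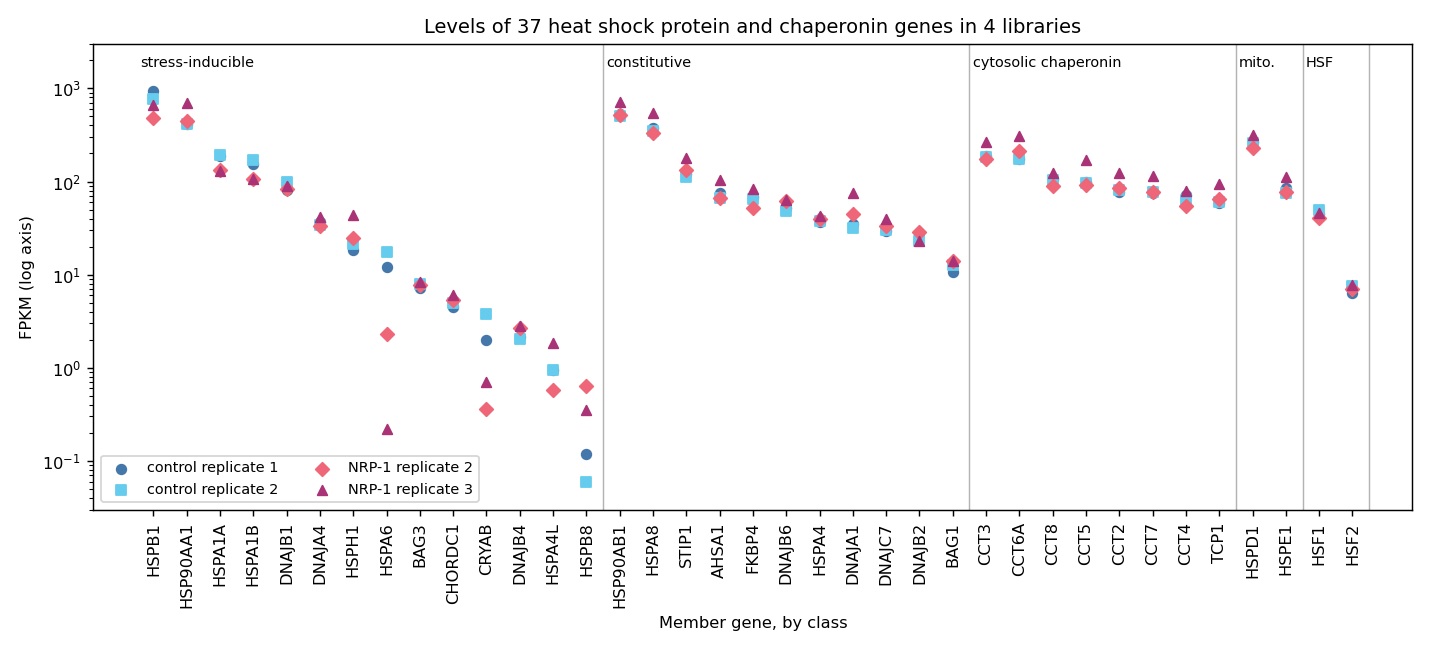
Level of each of the 37 members in FPKM on a log axis, with 1 point for each of the 4 libraries and members grouped by class. HSPA6 and CRYAB show the widest gaps between control and NRP-1 points among the members above 1 FPKM in control cells, and the NRP-1 replicate 3 points lie at the top of all 8 cytosolic chaperonin subunits.

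The 3 inducible cytosolic HSP70 genes were lower in both NRP-1 libraries, while the constitutive HSPA8 was lower in NRP-1 replicate 2 and higher in NRP-1 replicate 3. HSPA6, the HSP70 gene that is nearly silent in unstressed cells and strongly induced by heat, had 268 and 392 reads in the control libraries, 51 reads in NRP-1 replicate 2 and 5 reads in NRP-1 replicate 3. In FPKM it had 12.2 and 17.7 for wild-type against 2.28 and 0.22 for NRP-1. Both NRP-1 libraries lay below both controls, and replicate 3 lay below replicate 2 by a log2 ratio of -3.15. The normalized level was 40.4 ± 10.4 CPM (SD, n = 2) in control cells against 3.29 ± 3.83 (SD, n = 2), a log2 difference of -3.61 with an SE of 0.73 (adjusted p = 0.0726, edgeR). The log2 difference came to -6.08 with NRP-1 replicate 2 left out and to -2.75 with NRP-1 replicate 3 left out. HSPA6 was among the genes that the study picked from these same libraries, and its direction is no independent evidence. In GENCODE transcripts, 45.5% of the 50-base stretches of HSPA6 also occur in the neighbouring pseudogene HSPA7, whose reads were not analysed here, and none occur in HSPA1A or HSPA8.

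HSPA1A and HSPA1B, the major inducible HSP70 genes, lie next to each other and encode almost the same protein. HSPA1A had 186 and 194 FPKM in the control libraries, 133 in NRP-1 replicate 2 and 129 in NRP-1 replicate 3. HSPA1B had 154 and 170 FPKM in the control libraries and 106 in each of the NRP-1 libraries. For both genes the groups were apart and the NRP-1 libraries were nearly level, with log2 ratios of replicate 3 over replicate 2 of -0.04 and 0.00. The log2 difference was -0.57 for HSPA1A (SE 0.12, adjusted p = 0.0728, edgeR) and -0.64 for HSPA1B (SE 0.12, adjusted p = 0.0677, edgeR). Each was past the threshold in DESeq2, with an adjusted p of 0.0126 for HSPA1A and 0.00514 for HSPA1B. Of the 50-base stretches of the HSPA1A transcript, 72.6% are found in HSPA1B, so the counting program had to divide most reads of the pair between them by estimation. HSPA1A took between 52.3% and 54.6% of the reads of the pair in the 4 libraries. Summed, the pair had 7008 and 7567 control reads against 5014 and 4953, or 892 ± 40.5 CPM (SD, n = 2) against 586 ± 5.64 (SD, n = 2), a log2 difference of -0.61 with an SE of 0.12 (adjusted p = 0.0719, edgeR), which does not depend on how the reads were divided.

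HSPA8, the constitutive HSP70 known as HSC70, had no lower level in NRP-1 replicate 3. It had 376 and 351 FPKM in the control libraries, 336 in NRP-1 replicate 2 and 544 in NRP-1 replicate 3. The groups overlapped, since NRP-1 replicate 2 lay below the controls and NRP-1 replicate 3 above them, and the log2 difference was 0.24 with an SE of 0.24 (adjusted p = 0.59, edgeR). HSPA8 over the HSPA1A and HSPA1B pair was a ratio of 1.10 and 0.964 in control cells, 1.40 in NRP-1 replicate 2 and 2.32 in NRP-1 replicate 3 (exact permutation p = 0.33, the smallest possible). The inducible share of the 4 genes HSPA1A, HSPA1B, HSPA6 and HSPA8, in percent of their FPKM, was 48.4 and 52.1 in control cells against 41.9 and 30.2. Their sum was 728 and 733 FPKM in control cells, 578 in NRP-1 replicate 2 and 779 in NRP-1 replicate 3, so that the total straddled the controls while its makeup differed in both NRP-1 libraries. These shares and sums were chosen after the values had been seen.

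**Figure D2:**
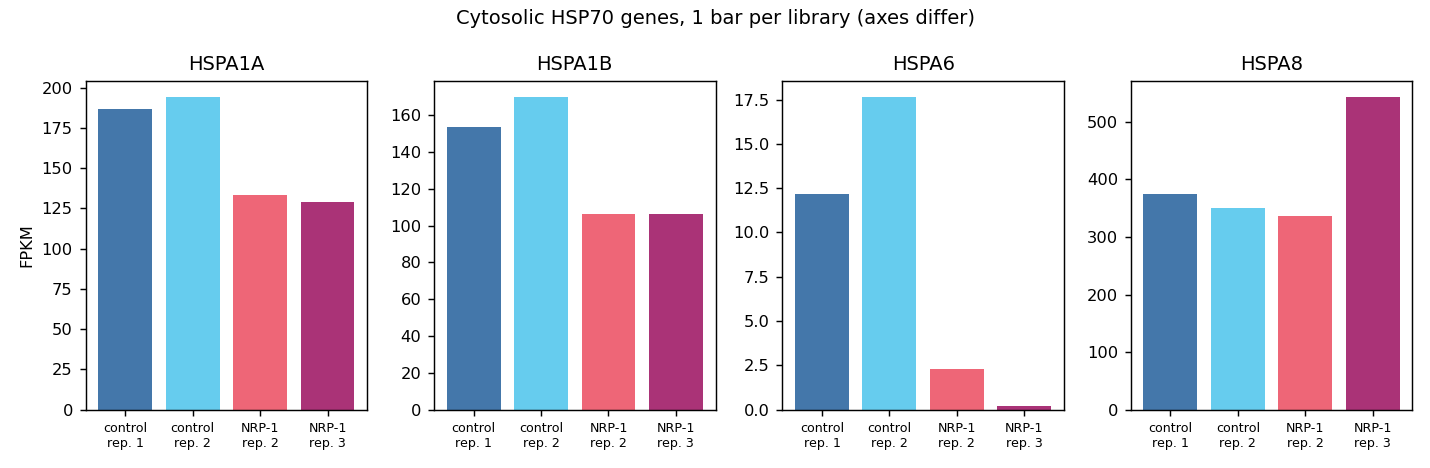
FPKM of HSPA1A, HSPA1B, HSPA6 and HSPA8, with 1 bar for each of the 4 libraries on axes that start at 0 and differ between genes. The 3 inducible genes lie lower in both NRP-1 libraries, and HSPA8 is highest in NRP-1 replicate 3 at 544.

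The promoters of these HSP70 genes hold exact matches of different length to the heat shock element. They are shown with those of HSPB1 and HSP90AA1 because the levels stood on different sides of the controls in NRP-1 replicate 3. The sequences are from RefSeq on GRCh38.p14, each a stretch of 100 bases of the promoter window on the coding strand. Capitals mark the match. A match holds GAA and TTC in alternation with any 2 bases between units, starting with either, and was searched on both strands. In capitals, HSPA6, HSPA8 and HSP90AA1 have 3 such units and the others 2. The HSP90AA1 stretch holds a further 2-unit match, TTCTGGAA, that was left in lower case. Units that depart from these letters were not searched.
HSPA6, chr1:161524421-161524520, plus strand: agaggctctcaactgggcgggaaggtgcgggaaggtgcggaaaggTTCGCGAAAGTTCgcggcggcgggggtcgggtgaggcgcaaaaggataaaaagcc
HSPA1A, chr6:31815392-31815491, plus strand: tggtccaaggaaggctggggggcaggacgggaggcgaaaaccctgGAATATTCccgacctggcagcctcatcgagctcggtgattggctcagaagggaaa
HSPA1B, chr6:31827588-31827687, plus strand: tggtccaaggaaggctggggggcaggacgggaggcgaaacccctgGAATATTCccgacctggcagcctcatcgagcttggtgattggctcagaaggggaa
HSPA8, chr11:123062137-123062236, minus strand: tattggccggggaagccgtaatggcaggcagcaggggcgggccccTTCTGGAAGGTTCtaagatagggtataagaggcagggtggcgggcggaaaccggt
HSPB1, chr7:76302446-76302545, plus strand: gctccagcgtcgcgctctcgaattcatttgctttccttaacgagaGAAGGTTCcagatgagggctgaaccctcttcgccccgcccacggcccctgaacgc
HSP90AA1, chr14:102087078-102087177, minus strand: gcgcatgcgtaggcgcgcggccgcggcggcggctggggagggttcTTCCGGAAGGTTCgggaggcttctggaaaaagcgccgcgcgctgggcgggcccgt
The HSPA1A and HSPA1B stretches differ at 3 of 100 bases. Among 33 members with a promoter window of 250 bases before to 50 after a start, 8 (24.2%) held the 3-unit element on either strand, against 0.608% of 27305 genes in the table. The 2-unit form, which the 3-unit form contains, was found in 20 members (60.6%) against 16.2% of genes. By class, the 3-unit element was in 3 of 13 stress-inducible, 4 of 10 constitutive and 0 of 7 cytosolic chaperonin genes. It was found in the stress-inducible HSPA6 and in the constitutive HSPA8. The printed genes were picked by their levels, and a link between the element and the levels was not tested. A match is a description of the letters and not of binding.

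The small heat shock proteins hold unfolded proteins without ATP. HSPB1, known as HSP27, had 935 and 775 FPKM in the control libraries, 478 in NRP-1 replicate 2 and 672 in NRP-1 replicate 3. Both NRP-1 libraries lay below both controls, with a log2 difference of -0.61 and an SE of 0.20 (adjusted p = 0.158, edgeR). CRYAB, alpha-B crystallin, was low throughout, with 11 and 21 control reads against 2 and 4. Its log2 difference was -2.42 with an SE of 0.65 (adjusted p = 0.107, edgeR) on counts this low. HSPB8, which works with BAG3 in the autophagy of damaged proteins, was the member too low to be tested, with 2 and 1 control reads against 11 and 6. Its ratio of NRP-1 over control reads was 5.57, with an exact 95% interval of 1.61 to 29.7 that covers counting error only. The 3 small heat shock proteins thus did not share a direction.

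The HSP90 genes were highest in NRP-1 replicate 3. HSP90AA1, the more inducible cytosolic HSP90, had 410 and 416 FPKM in the control libraries, 449 in NRP-1 replicate 2 and 690 in NRP-1 replicate 3. The groups did not overlap, but NRP-1 replicate 2 was above the control mean by 0.08 on the log2 scale and NRP-1 replicate 3 by 0.71. The log2 difference was 0.43 with an SE of 0.22 (adjusted p = 0.303, edgeR). HSP90AB1, the constitutive form, had 526 and 503 FPKM in the control libraries, 515 in NRP-1 replicate 2 and 722 in NRP-1 replicate 3, so that NRP-1 replicate 2 lay between the controls. Its log2 difference was 0.23 with an SE of 0.19 (adjusted p = 0.516, edgeR). The HSP90AA1 share of the FPKM of both genes was 43.8% and 45.3% in control cells against 46.6% and 48.9%, higher in both NRP-1 libraries (exact permutation p = 0.33).

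The HSP90 cochaperones were also highest in NRP-1 replicate 3. STIP1, the HOP protein that hands clients from HSP70 to HSP90, had 119 and 112 FPKM in the control libraries, 133 in NRP-1 replicate 2 and 179 in NRP-1 replicate 3, a log2 difference of 0.40 with an SE of 0.17 (adjusted p = 0.243, edgeR). AHSA1, the activator of the HSP90 ATPase, had 75.0 and 67.1 FPKM against 65.9 and 104. FKBP4, the immunophilin FKBP52 of steroid receptor complexes, had 67.8 and 64.5 FPKM against 51.9 and 82.8. In AHSA1 and FKBP4 the NRP-1 libraries lay on opposite sides of both controls. CHORDC1, an HSP90-binding protein induced by heat, was low, with 4.46 and 4.96 FPKM against 5.37 and 6.07.

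HSP110 proteins exchange the nucleotide of HSP70. HSPH1, the inducible HSP105, had 18.4 and 21.2 FPKM in the control libraries, 24.5 in NRP-1 replicate 2 and 43.9 in NRP-1 replicate 3. Both NRP-1 libraries lay above the controls, by 0.27 and 1.11 on the log2 scale, and the log2 difference was 0.75 with an SE of 0.28 (adjusted p = 0.186, edgeR). HSPA4, the constitutive relative, differed little, at 37.0 and 37.5 FPKM against 39.3 and 42.4. HSPA4L had 26 reads in each control library, 16 in NRP-1 replicate 2 and 52 in NRP-1 replicate 3, again on both sides of the controls. Of the BAG proteins, BAG3 had 7.23 and 8.01 FPKM against 7.75 and 8.24 with overlapping groups, and BAG1 10.6 and 12.6 FPKM against 14.1 in each NRP-1 library.

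Among the J-proteins DNAJA1 had the largest difference. DNAJA1, a general partner of HSC70, had 35.4 and 32 FPKM in the control libraries, 44.7 in NRP-1 replicate 2 and 76.2 in NRP-1 replicate 3, a log2 difference of 0.81 with an SE of 0.26 (adjusted p = 0.149, edgeR). Its groups did not overlap. DNAJB6, which keeps aggregation-prone proteins soluble, had 51.7 and 48.3 FPKM in wild-type cells against 62.5 and 62.7 with NRP-1. The NRP-1 libraries differed by 0.07 on the log2 CPM scale for DNAJB6, and the log2 difference was 0.43 with an SE of 0.12 (adjusted p = 0.115, edgeR). DNAJB1, the inducible HSP40, had 81.3 and 99.2 FPKM against 83.6 and 88.7, within the range of the controls. DNAJA4 also overlapped, at 36.4 and 33.8 FPKM against 33.3 and 41.6, as did DNAJB2 at 27.8 and 22.8 FPKM against 28.5 and 22.7. DNAJB4 (2.15 and 2.03 FPKM against 2.70 and 2.84) and DNAJC7 (29.1 and 30.5 FPKM against 33.7 and 40.0) were higher in both NRP-1 libraries, with adjusted p-values of 0.46 and 0.279 in edgeR.

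All 8 subunits of the cytosolic chaperonin lay above both controls in NRP-1 replicate 3, and were among 28 of the 37 members that did. The share of all tested genes that did is not given. Their summed level was 849 and 837 FPKM in the control libraries, 852 in NRP-1 replicate 2 and 1284 in NRP-1 replicate 3. CCT6A had the largest difference, with 173 and 175 FPKM in the control libraries, 214 in NRP-1 replicate 2 and 309 in NRP-1 replicate 3. The log2 difference of CCT6A was 0.55 with an SE of 0.19 (adjusted p = 0.172, edgeR). CCT5 had 97.8 and 95.6 FPKM against 92.6 and 169, the widest gap between the NRP-1 libraries among the subunits, of 0.87 on the log2 scale. TCP1 (58.3 and 59.8 FPKM against 64.19 and 94.99), CCT2 (78.0 and 81.6 against 84.6 and 125) and CCT6A were the 3 subunits whose groups did not overlap in CPM. Of all tested genes, 27.9% were higher without overlap. In FPKM CCT7 (75.6 and 77.2 against 78.1 and 116) was apart as well. For CCT3, CCT4, CCT5 and CCT8 the groups overlapped on both scales, and the fitted log2 differences of the 8 subunits ran from -0.04 to 0.55. The subunits form rings of equal parts, but the RNA of the highest subunit was 3.26 and 3.04 times that of the lowest in the wild type, against 3.95 and 3.88 times with NRP-1. The mitochondrial chaperonin gave a similar order of libraries, with HSPD1 at 263 and 261 FPKM against 231 and 316 and its partner HSPE1 at 85.3 and 74.7 FPKM against 77.8 and 112. A readthrough gene that contains HSPE1, HSPE1-MOB4, was given 114 reads in control replicate 1 and 0 in the other 3 libraries, which bears on the HSPE1 value of that library.

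The heat shock factors differed less. HSF1 had 44.7 and 49.7 FPKM in wild-type cells against 40.2 and 45.9 with NRP-1, with overlapping groups and a log2 difference of -0.17 (SE 0.14, adjusted p = 0.504, edgeR). HSF2 had 6.31 and 7.54 FPKM against 7.03 and 7.70 (adjusted p = 0.885, edgeR). The activity of HSF1 is set mainly by its release from chaperones and by phosphorylation, which its RNA does not measure.

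**Figure D3:**
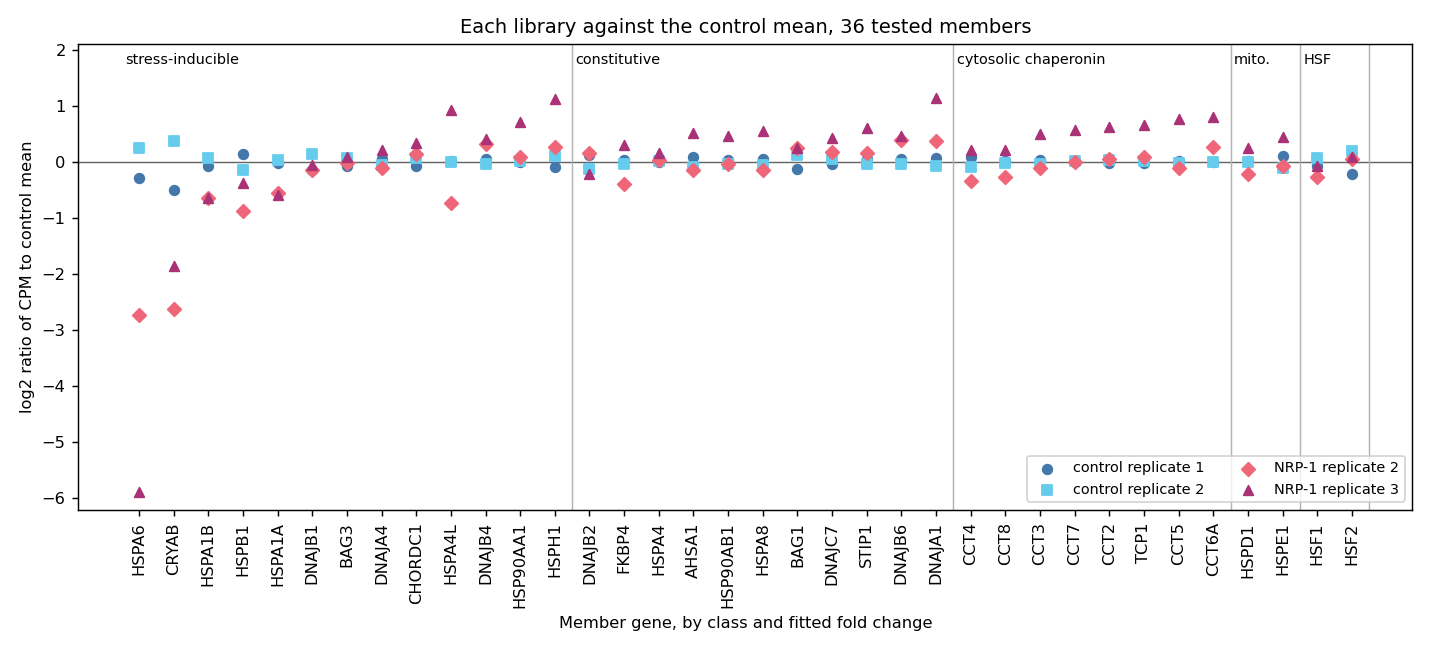
The log2 ratio of each library's CPM (plus 0.1) to the control mean for the 36 tested members, ordered within each class by fitted log2 difference. HSPA6, CRYAB, HSPA1B, HSPB1 and HSPA1A lie below both controls in both NRP-1 libraries, and NRP-1 replicate 3 lies above NRP-1 replicate 2 in 33 of 36 members.

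Inducible and constitutive members were set side by side as a description. The classes were assigned for this report with earlier results of these data known, and induction was not measured here. The 13 tested stress-inducible members had a median log2 difference of 0.03, with 7 above and 6 below zero and a range from -3.61 to 0.75. The 11 constitutive members had a median of 0.24, with 9 above zero and a range from -0.02 to 0.81, and the 8 cytosolic chaperonin subunits a median of 0.33. The median of all tested genes was 0.02. Without NRP-1 replicate 3 the medians were -0.15 for the stress-inducible members, 0.15 for the constitutive members and -0.05 for the chaperonin subunits. Of the members lower in both NRP-1 libraries without overlap all 5 were stress-inducible. Of the 13 higher in both without overlap 4 were stress-inducible, 6 constitutive and 3 chaperonin subunits. Of all tested genes, 28.3% were lower and 27.9% higher without overlap, beside 5 lower and 4 higher of the 13 tested stress-inducible members. The inducible class ran from HSPA6 at -3.61 to HSPH1 at 0.75, and the groups overlapped in its members DNAJB1 and BAG3. The highest value of all members, 0.81, was that of the constitutive DNAJA1.

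The NRP-1 libraries differed from each other in this gene set. NRP-1 replicate 3 was above NRP-1 replicate 2 in 33 of 36 tested members, where 49.0% of all tested genes were, and by at least 0.5 on the log2 scale in 16 (44.4%), against 14.3% of all tested genes. Between the controls, 2 tested members were higher in replicate 2 by that size, HSPA6 and CRYAB, against 4.36% of all tested genes. The median log2 ratio to the control mean was -0.06 in NRP-1 replicate 2 and 0.59 in NRP-1 replicate 3 for the chaperonin subunits, 0.15 and 0.46 for the constitutive members, and -0.15 and 0.08 for the stress-inducible members. These are single libraries without a test, and HSPA1A, HSPA1B, DNAJB6 and BAG1 were at nearly one level in both.

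Related lists gave the setting. Of 40 other cytosolic chaperones and cochaperones tested, 0 had an adjusted p under 0.05 in edgeR, and the median log2 difference was 0.11. An unadjusted p under 0.05 was found in 5 of them, against 22.9% of all tested genes. The most different was HSPB7, with 30 and 29 reads against 23 and 8. Prefoldin subunits and CCT helpers, which deliver and release clients of the chaperonin, had a median of 0.08 over 13 genes, and PDCL3, a helper that binds CCT, had 154 and 180 reads against 273 and 280 (log2 difference 0.67, adjusted p = 0.0946, edgeR). In NRP-1 replicate 3 the median log2 ratio to the control mean was 0.05 for this list and 0.59 for the chaperonin subunits. Mitochondrial chaperones had a median of -0.08 over 10 genes, and CLPB, a disaggregase, was the most different at 0.39.

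Chaperones of the endoplasmic reticulum and immediate early genes were mostly lower in BT-474 NRP-1 cells. All 16 endoplasmic reticulum genes were lower in both NRP-1 libraries without overlap, against 28.3% of all tested genes. Their median log2 difference was -0.91. In edgeR 15 of them were lower at an unadjusted p under 0.05, against 12.1% of all tested genes, and 0 passed the adjusted threshold. HSPA5, the HSP70 of that compartment known as BiP, had 36776 and 36285 control reads against 19350 and 8537, a log2 difference of -1.45 (adjusted p = 0.0975, edgeR). Its level was lowest in NRP-1 replicate 3, the library in which HSPA8 and HSP90AA1 were highest. Immediate early genes, which respond within minutes to handling and growth factors, had a median of -0.88 over 14 genes. Of these, 10 were lower without overlap, against 28.3% of all tested genes. Their summed level was 1069 and 981 FPKM in control cells, 807 in NRP-1 replicate 2 and 444 in NRP-1 replicate 3. MYC was the most different of these, with 1113 and 1116 reads against 231 and 553, and FOS had 1384 and 1059 reads against 1011 and 192. Over all 5 related lists DESeq2 called 17 genes and edgeR 0, where they called 6.67% and 1.09% of all tested genes. By their medians, the endoplasmic reticulum and immediate early lists lay on the same side of the controls as the 5 lower members. HSPH1 and HSP90AA1 lay on the other side. The part of these genes in the members' values was not tested.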

How the data were processed

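RNA was sequenced in 2 libraries per group. The authors mapped reads with HISAT/Bowtie2, and the submitters' processing notes name HISAT2 2.0.1, Bowtie2 2.2.5 and RSEM and list both GRCh38 and hg19 without a role. The authors deposited 1 table per library with the expected count of every gene, which is not normalized and not always whole, and its FPKM, corrected for transcript length and mapped reads. Their table of group means, log2 ratios and a probability was not used. Gene IDs were matched to RefSeq symbols (99.4% of 18882).

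Expected counts were rounded and fitted over all genes with R 4.3.3 and edgeR 4.0.16: filterByExpr removed low genes, TMM scaled the libraries, and glmQLFit and glmQLFTest compared the groups without covariates. SE is the absolute log2 difference over the square root of F. CPM uses TMM library sizes. Alternatives were DESeq2 1.42.0, limma 3.58.1 (log2 of FPKM with a pseudocount of 1 or 0.1), no TMM, no filter and each library left out. The fits were also run on simulated counts in which every library had the spread of the NRP-1 group. The real controls varied less, so the simulation does not cover that difference in spread. Python 3.11.15 and scipy 1.17.1 were used for the rest.

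Members and lists were chosen with earlier results of these data known. Values in every library are given for HSPA6, HSPA1A, HSPA1B, HSPA8, the HSP90 genes, HSF1, members with an adjusted p under 0.05, and members without overlap and with a log2 change of at least 0.5. The most different gene of each other list is named, and FOS, DNAJB6 and further members were named after their values were seen. Pseudogenes and overlapping genes may share reads with members.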

Additional observations from a re-analysis of the deposited data

How the results depend on the processing

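No paired analysis was possible because the groups share only replicate number 2. DESeq2 called 2 members, 17 genes of the 5 related lists and 6.67% of all tested genes. In edgeR 0 members, 0 genes of these lists and 1.09% of all tested genes were called. The cause of the difference was not tested. The share of all tested genes called with a library left out is not given. No reading of the members or lists is drawn from the counts that follow for those fits. With each library left out the count of members ran from 0 to 22 and that of the related lists from 0 to 53, since an NRP-1 group of 1 library is assumed to vary like the controls. Leaving out NRP-1 replicate 2 gave 22 members and leaving out NRP-1 replicate 3 gave 12. NRP1 had a log2 difference of 3.38 without a filter on low counts (adjusted p = 0.106, edgeR), 1.28 (adjusted p = 0.121) in limma with a pseudocount of 1 FPKM and 2.87 (adjusted p = 0.112) with one of 0.1, and 2.96 to 3.70 with each library left out, where it was no longer past the threshold without control replicate 1 (adjusted p = 0.802, edgeR) or control replicate 2 (adjusted p = 0.612, edgeR). The HSPA1A and HSPA1B pair was past the threshold in DESeq2 (-0.61, adjusted p = 0.00575) and ran from -0.65 to -0.56 with each library left out. HSPA6 was at -3.61 with all libraries, at -6.08 with NRP-1 replicate 2 left out and at -2.75 with NRP-1 replicate 3 left out. The median of the stress-inducible members ran from -0.15, without NRP-1 replicate 3, to 0.07, and that of the chaperonin subunits ran from -0.05, with NRP-1 replicate 3 left out, to 0.58, with NRP-1 replicate 2 left out. The 2-unit element in place of the 3-unit one was in 20 members.

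Small differences changed sign. DNAJB2 was 0.01 without TMM and in both limma fits, FKBP4 was 0.02 without TMM, and CCT8 was 0.03 without TMM and 0.01 in both limma fits. Over the 35 members tested apart from HSPA6, those 3 included, 166 of 175 comparisons with the alternatives that keep all libraries had the same direction and side of the threshold. With each library left out 17 members changed sign: HSPA4L ran from -0.75 to 0.93, DNAJA4 from -0.11 to 0.21, DNAJB1 from -0.24 to 0.05, BAG3 from -0.04 to 0.11, HSPA8 from -0.15 to 0.54, HSP90AB1 from -0.04 to 0.45, DNAJB2 from -0.23 to 0.15, AHSA1 from -0.15 to 0.51, FKBP4 from -0.39 to 0.28, CCT3 from -0.11 to 0.48, CCT4 from -0.34 to 0.21, CCT5 from -0.10 to 0.76, CCT7 from -0.01 to 0.56, CCT8 from -0.27 to 0.21, HSPD1 from -0.22 to 0.23, HSPE1 from -0.08 to 0.44 and HSF2 from -0.13 to 0.28.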
